A study of Bos taurus with 12 samples.

Results

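Enzymes of glycolysis and lactate formation were followed in the mammary gland of lactating Holstein cows before and during feed restriction. They were GPI, PFKL, ALDOA, ALDOC, TPI1, GAPDH, PGK1, ENO1, LDHA and LDHB, 10 of the 12787 genes that could be named on the array, with 39 of its 43653 probes. The probes were taken by the RefSeq transcript that the array annotation gives them. The 10 genes were chosen by name with the difference between the periods already known from these arrays, so the REST against CONT values of these genes are a description and carry no test. RNA came from biopsies of the rear udder, with 1 one-colour (Cy3) oligonucleotide array per sample and 12 arrays in all. CONT was sampled on day 0, at the end of a period of ad libitum feeding (n = 6 arrays), and REST on day 6 of an allowance set to cover only part of the net energy requirement for lactation (n = 6). The labels name 6 cows, each with 1 CONT and 1 REST array, although the description of the series counts 5. The study's methods exclude 1 Holstein cow with mastitis, and whether 1 of these 6 pairs is from that animal is not given in the sources used here, so each mean over 6 cows may include it. The cows are numbered 1 to 6 here. All cows were in midlactation and each served as its own control, so that period and time cannot be told apart.

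Glycolysis splits glucose into pyruvate in the cytosol, and yields ATP, NADH and the triose phosphates from which the glycerol backbone of milk fat is made. In the ruminant mammary gland much of the glucose taken up goes to lactose, and acetate rather than glucose is the main carbon source of fatty acids. Aldolase exists as several isozymes, of which ALDOA is known from muscle and most other tissues and ALDOC mainly from brain. Lactate dehydrogenase is built from LDHA and LDHB subunits, which interconvert pyruvate and lactate.

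Values are normalized signals in log2 units, relative to the 75th percentile of the processed signal of the same array, so that a difference of 1 is a factor of 2. A gene is represented by its brightest probe unless stated, and changes are REST minus CONT within a cow, as mean ± SD over the 6 cows. A probe was called when limma, with the cow as a block, gave a Benjamini-Hochberg adjusted p under 0.1 over all tested probes. All 39 probes were well above background on all 12 arrays and none was dropped by the filter on dim probes. The 4 arrays of slide 3 (cows 5 and 6) were dimmer than the others, with 75th percentiles of 73.2 to 117 intensity units against 252 to 390.0 on slides 1 and 2. No spot of any array was saturated. Both arrays of a cow lay on 1 slide, so the periods were balanced within each slide. Within every cow, however, the REST array had a higher 75th percentile than the CONT array. On slide 1 it was 286 (CONT) and 348 (REST) in cow 1, and 305 and 390 in cow 2. On slide 2 it was 298 and 335 in cow 3, and 252 and 307 in cow 4. On slide 3 it was 85.7 and 117 in cow 5, and 73.2 and 87.0 in cow 6. The 75th percentile shift removes this difference, and its part in the changes was not tested. The labelled tissue was checked against secretory epithelium markers: CSN1S1, CSN3, LALBA and PAEP, which encode milk proteins, were far above the array's 75th percentile, and the lowest of their mean signals in either period was 9.53.

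Of the 10 enzymes, 8 had a lower and 2 a higher mean signal in REST, and the median change was -0.19, where the median of all 7932 tested genes was -0.01. ALDOC stood apart from the other members with -1.12 ± 0.48. PFKL (-0.37 ± 0.24) and ENO1 (-0.34 ± 0.27) came next, GPI, PGK1, GAPDH, ALDOA and TPI1 lay between -0.23 and -0.11, and LDHA and LDHB were at 0.02 and 0.10. Ordered in this way, neighbours below ALDOC differed by less than the SD between cows. Of the 39 probes, 33 were lower and 6 higher in REST, and the 6 belonged to the lactate dehydrogenase subunits. In all, 10 member probes were called, all lower in REST, where 16.0% of all 19406 tested probes were called (8.78% lower and 7.22% higher). They belonged to 3 genes, where 20.5% of all tested genes had a called probe: 3 of 3 ALDOC probes, 3 of 3 PFKL probes and 4 of 5 ENO1 probes. Without the cow as a block, 3 member probes were called, all of ALDOC, where 4.31% of all probes and 4.41% of all genes were. In all 6 cows, 11 member probes were lower and 0 were higher, where 9.78% and 7.77% of all probes were. These counts rest on the contrast with which the genes were chosen.

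**Figure D1:**
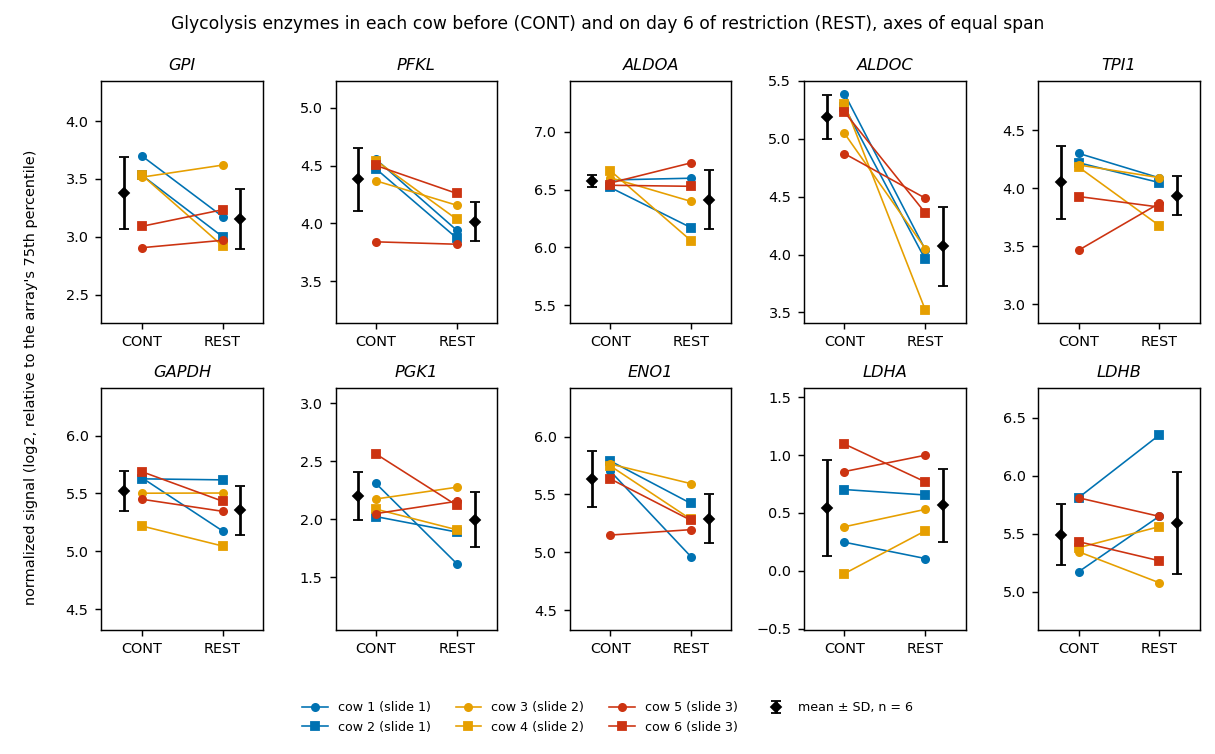
Normalized signal (log2, relative to the 75th percentile of the array) of the brightest probe of each enzyme in CONT and REST; lines join the samples of a cow, colours give the slide, and black diamonds show the mean ± SD (n = 6). The vertical axes differ in position but have the same span. ALDOC is the enzyme whose 6 REST values (3.52 to 4.49) all lie below its 6 CONT values (4.87 to 5.39).

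ALDOC (NM_001097984), an aldolase that cleaves fructose-1,6-bisphosphate into triose phosphates, had CONT signals from 4.87 to 5.39 (median 5.25) and REST signals from 3.52 to 4.49 (median 4.05). The groups did not overlap, which was so for 1 of the 10 members by the brightest probe and for 2.28% of all tested genes (3 member probes, all of ALDOC, and 2.25% of all probes). The mean went from 5.19 ± 0.19 to 4.07 ± 0.34, and the geometric mean of the REST over CONT ratio was 0.462. Within cows, the change was -1.35 in cow 1, -1.32 in cow 2, -0.995 in cow 3, -1.78 in cow 4, -0.38 in cow 5 and -0.87 in cow 6. Every cow was therefore lower in REST, with cow 4 at the far end and cow 5 nearest to 0. The slide means were -1.33, -1.39 and -0.63 for slides 1, 2 and 3, so the dim slide carried the smallest change, and whether signal strength had a part in this was not tested. The 2 other ALDOC probes, which were dimmer, gave -1.07 ± 0.44 and -0.98 ± 0.43, with no overlap of the groups in either.

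ALDOA (NM_001101915), the isozyme that catalyses the same step, had CONT signals within a narrow range from 6.52 to 6.66 (median 6.57). Its REST signals spread from 6.06 to 6.73 (median 6.46), and the groups overlapped. The change was -0.16 ± 0.28, lower in 4 of 6 cows, and over its 4 probes the mean changes lay between -0.25 and -0.15. None of the ALDOA probes was called (0 of 4, limma; 0 of 4 without the cow as a block as well). Within each cow, the change of ALDOC was below that of ALDOA, by -0.95 ± 0.29 with the brightest probes (every cow, with -1.36 for cow 1 farthest from 0 and -0.56 for cow 5 nearest) and by -0.87 ± 0.28 with the mean of all probes of each gene. The ALDOC difference was therefore the larger in every animal. Levels are not compared between them, since different probes do not share a scale.

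PFKL, a subunit of the phosphofructokinase that commits sugar to glycolysis, had CONT signals from 3.84 to 4.55 (median 4.49) and REST signals from 3.82 to 4.26 (median 3.99). It was lower in all 6 cows, as ALDOC was, so that 2 of the 10 members were lower in every cow by the brightest probe, where 10.8% of all tested genes were. No member was higher in every cow, where 7.50% of all genes were. The groups overlapped because cow 5 was low in both periods, at 3.84 in CONT and 3.82 in REST. The changes in the slides were -0.61, -0.36 and -0.13. The 2 dimmer probes gave -0.41 ± 0.23 and -0.44 ± 0.23, and each was lower in 6 of 6 cows. All 3 PFKL probes were called with the cow as a block and none without it (0 of 3).

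GPI, which interconverts glucose-6-phosphate and fructose-6-phosphate, had CONT signals from 2.91 to 3.70 and REST signals from 2.92 to 3.62. It was lower in 3 cows (-0.61 to -0.52) and higher in the other 3 (0.06 to 0.14), so that its mean of -0.23 ± 0.36 described none of them. TPI1, which interconverts the triose phosphates, had a change of -0.11 ± 0.30 and was lower in 5 of 6 cows. The exception was cow 5, where TPI1 was higher by 0.41. The same direction was seen with the dimmer probes, -0.26 and -0.17 for GPI and -0.16 and -0.13 for TPI1, and no probe of either gene was called.

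The enzymes after the triose phosphates showed smaller differences than ALDOC. ENO1, the enolase that forms phosphoenolpyruvate, had CONT signals from 5.15 to 5.79 (median 5.72) and REST signals from 4.96 to 5.59 (median 5.28). It was lower in 5 of 6 cows, with -0.74 in cow 1 as the lowest change and 0.05 in cow 5 as the highest. All 5 ENO1 probes lay between -0.36 and -0.30, and the 4 dimmer ones were lower in 6 of 6 cows. As with PFKL, cow 5 had the lowest CONT signal, far from the other 5 cows.

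GAPDH, which oxidizes glyceraldehyde-3-phosphate and is often used as a reference gene, had CONT signals from 5.22 to 5.69 and REST signals from 5.05 to 5.62. Its change was -0.17 ± 0.17. The 8 probes agreed within -0.20 to -0.14, all below 0 and none called. PGK1, the first ATP-yielding enzyme of the pathway, had a change of -0.21 ± 0.31. It was lower in 4 of 6 cows, and cow 1 (-0.69) and cow 5 (0.11) were the extremes. Its 2 other probes gave -0.18 and -0.16.

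LDHA had CONT signals from -0.02 to 1.095 and REST signals from 0.11 to 0.999, and was lower in 3 and higher in 3 cows, with a change of 0.02 ± 0.25. Its 3 probes did not share a sign (-0.06 to 0.08). LDHB had CONT signals from 5.17 to 5.81 and REST signals from 5.08 to 6.35, and had a change of 0.10 ± 0.35. LDHB was higher in cows 1 and 2 (0.48 and 0.54) and in cow 4 (0.18), and lower in cows 3, 5 and 6 (-0.27 to -0.16). The within-cow difference between the changes of LDHB and LDHA was 0.08 ± 0.45 and had either sign in 3 of 6 cows. Neither subunit had a called probe (0 of 7).

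**Figure D2:**
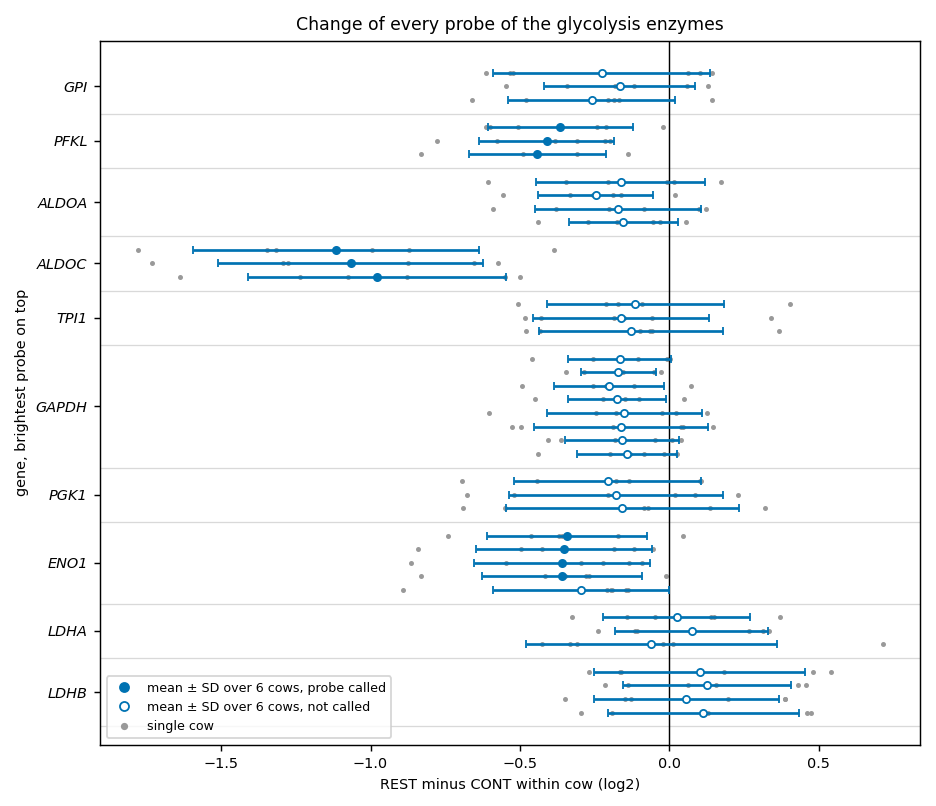
Change (REST minus CONT within a cow, log2) of each of the 39 probes, grouped by gene with the brightest probe of a gene on top; circles and bars give the mean ± SD over 6 cows, filled circles the called probes, and grey dots single cows. Probes of a gene lie close together, the ALDOC probes are centred on -1.12 to -0.98, and those of the lactate dehydrogenase subunits lie on either side of 0.

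The members also differed between cows. The median change over the 10 enzymes was -0.49 in cow 1, -0.26 in cow 2, -0.14 in cow 3, -0.48 in cow 4 and -0.25 in cow 6, and 0.06 in cow 5, where 6 of 10 were higher in REST. The median of all tested genes lay between -0.05 and 0.01 in every cow. By the brightest probes, cow 5 had the change nearest to 0 for ALDOC, PFKL and ENO1. The dimmer probes did not all share this: cow 3 was nearest to 0 in both other PFKL probes, cow 6 in 1 ALDOC probe, and in 1 ENO1 probe cow 5 had a change of -0.55. Restricting the comparison to slides 1 and 2 (4 cows), the ALDOC change was -1.36 and the median over the members -0.27.

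The other enzymes of the pathway were examined from a list of 20 genes that are no members, of which 18 had a named probe and 10 were tested. One fell and 1 rose, with the cow as a block, where 9.27% of all tested genes fell and 6.95% rose (16.2% in both directions). HKDC1, a hexokinase-like protein, rose from -2.05 to -1.53 (change 0.52, SE 0.16, limma adjusted p 0.0800) and was higher in 6 of 6 cows, though by only 0.04 and 0.01 in cows 5 and 6. It was not called without the cow as a block (limma adjusted p 0.217), nor without any 1 of cows 1 to 4, and its change on leaving out 1 cow was 0.39 to 0.62. Under normexp background correction the HKDC1 change was 0.21 and was not called. Without the cow as a block, no gene of the list was called (0 of 10).

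The remaining 8 tested enzymes did not pass. The phosphofructokinase subunits PFKM and PFKP had changes of -0.09 and 0.03, PGAM1 (phosphoglycerate mutase) of 0.02, PKM (pyruvate kinase) of -0.15, HK1 of -0.08 and ADPGK of 0.00. ENO3, the muscle enolase, had a change of -0.17 with its brightest probe and of -0.48 with its other, called probe. GAPDHS, known as the sperm form of GAPDH, had a change of -0.16 with 1 probe, whose mean CONT signal was 3.35. For 1 GAPDH probe these values were -0.18 and 3.37, and cross-hybridisation between these genes was not examined. The median of the 10 genes was -0.09. The 8 genes that were not tested because no probe was well above background on every array of a group included ENO2, the enolase of nerve cells.

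**Figure D3:**
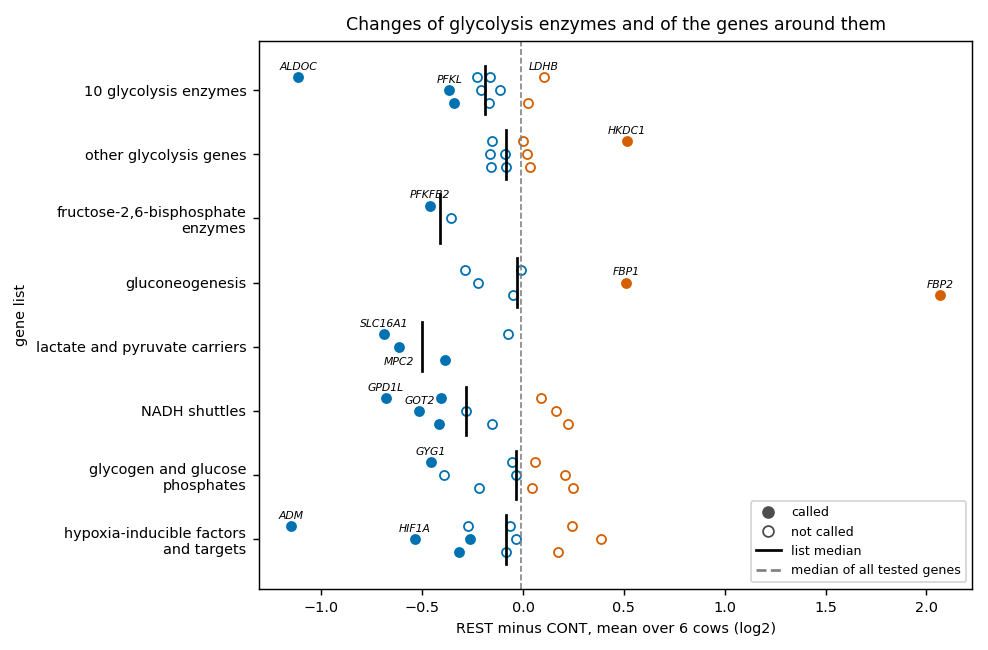
Change (REST minus CONT, mean over 6 cows, log2) of the 10 enzymes and of the tested genes of 7 lists around glycolysis, with 1 point per gene at its brightest probe (1 tested gene of the other glycolysis genes is not drawn); filled points were called, black lines are list medians and the dashed line is the median of all tested genes (-0.01). ALDOC (-1.12) and ADM (-1.15) are the lowest points and FBP2 (2.07) is the highest.

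Enzymes that set or oppose the flow through phosphofructokinase were taken from separate lists. Of the enzymes that make or degrade fructose-2,6-bisphosphate, an activator of phosphofructokinase, 2 of 5 were tested. PFKFB2 fell (change -0.46, SE 0.15, limma adjusted p 0.0902), though the call was lost without cow 2 (-0.41), 3 (-0.44), 4 (-0.36) or 6 (-0.45). PFKFB3 did not pass, and its probes differed in sign, with -0.36 for the brightest (1.02 in cow 4) and 0.16 for the other. Of 6 tested gluconeogenesis genes, 2 rose and none fell by the brightest probe, where 6.95% of all tested genes rose and 9.27% fell. FBP2, the muscle form of the fructose-1,6-bisphosphatase that reverses the phosphofructokinase step, had CONT signals from -1.56 to -0.03 (median -0.21) and REST signals from -1.11 to 3.58 (median 1.74). It was higher in 6 of 6 cows, by 3.65 in cow 1, 3.06 in cow 2, 1.30 in cow 3, 2.09 in cow 4, 1.85 in cow 5 and 0.45 in cow 6 (mean 2.07, SE 0.36, limma adjusted p 0.0181). FBP1, the liver form, rose by 0.51 (SE 0.12, limma adjusted p 0.0400), with 2 of 2 probes called, and was higher in 6 of 6 cows, and without cow 2 (0.45) it was not called. PC, PCK2, G6PC3 and SLC37A4, which act at other steps, had changes of -0.29, -0.01, -0.05 and -0.22 with their brightest probes and did not pass, but the other PC probe was called lower (-0.43). Without the cow as a block, no gene of either list was called, with limma adjusted p of 0.104 for FBP2 and 0.108 for FBP1.

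Of a list of 8 carriers of the end products of glycolysis, 6 had a named probe and 4 were tested. Of these 4, 3 fell and none rose, where 9.27% of all tested genes fell, and the median was -0.50. SLC16A1, the monocarboxylate transporter MCT1, had CONT signals from 2.08 to 2.79 and REST signals from 1.47 to 2.14 (change -0.69, SE 0.16, limma adjusted p 0.0363, 3 of 3 probes). BSG, the membrane partner that MCT1 needs to reach the cell surface, had CONT signals from 3.83 to 4.34 and REST signals from 3.28 to 3.79 (change -0.39, SE 0.11, limma adjusted p 0.0582, 4 of 4 probes). MPC2, a subunit of the mitochondrial pyruvate carrier, had CONT signals from 4.91 to 5.57 and REST signals from 4.34 to 4.86 (change -0.62, SE 0.11, limma adjusted p 0.0193). These 3 genes were lower in 6 of 6 cows, and for BSG and MPC2 the groups did not overlap. MPC1, the partner subunit of MPC2, had a change of -0.08 and did not pass. Without the cow as a block, SLC16A1 and MPC2 were called and BSG was not (limma adjusted p 0.121). Without cow 2, SLC16A1 (-0.57) and BSG (-0.34) were not called, and the call of BSG was also lost on leaving out cow 1 (-0.33) or cow 4 (-0.36).

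Of 9 tested genes of the shuttles that carry the NADH of glycolysis into mitochondria, 4 fell and none rose, with a median of -0.28. Over all tested genes, 9.27% fell and 6.95% rose. GOT2, the mitochondrial aspartate aminotransferase, went from a CONT range of 3.60 to 3.71 to a REST range of 3.08 to 3.21 (change -0.51, SE 0.07, limma adjusted p 0.00798). MDH1 and MDH2, the cytosolic and mitochondrial malate dehydrogenases, fell by 0.41 and 0.42 on the log2 scale (limma adjusted p 0.0407 and 0.0330), and GPD1L, a glycerol-3-phosphate dehydrogenase, fell by 0.68 (limma adjusted p 0.0343). GPD1, which makes glycerol-3-phosphate, had a change of 0.22 and did not pass. Without cow 4, 1 gene of this list was called, GOT2, and GPD1L (-0.58) was also not called without cow 2. Without the cow as a block, GPD1L was not called (limma adjusted p 0.101) and the 3 others were.

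**Figure D4:**
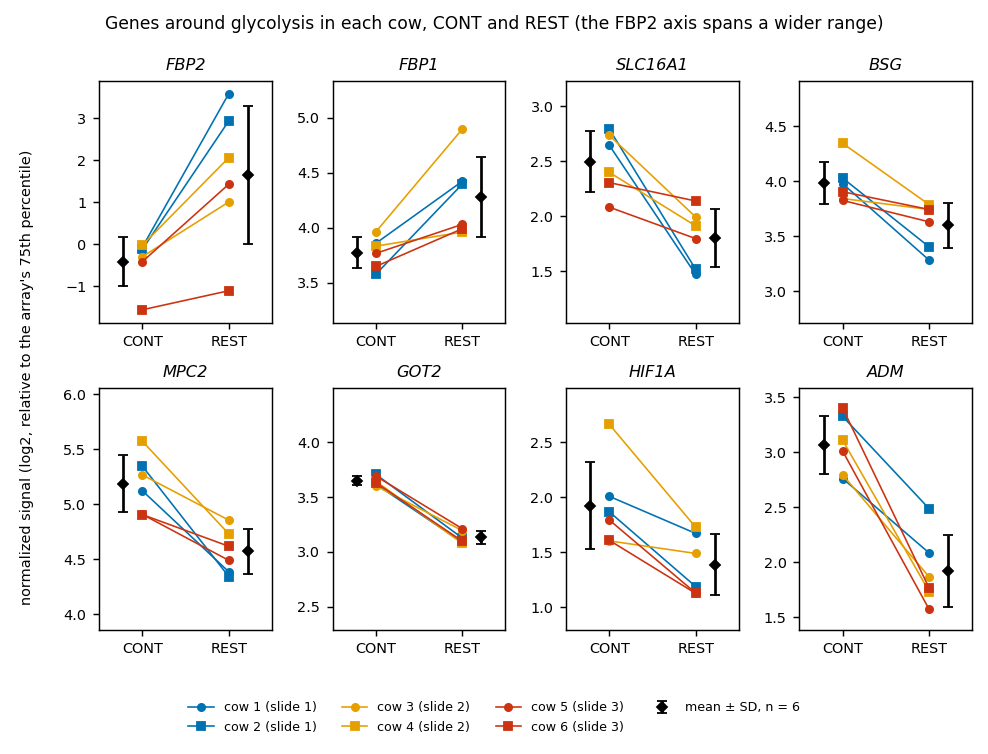
Normalized signal (log2) of 8 genes around glycolysis in CONT and REST, drawn as for the enzymes; the FBP2 axis spans a wider range than the others. FBP2 runs from -1.56 to -0.03 in CONT and from -1.11 to 3.58 in REST, while the GOT2 values of each period lie close together.

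Of 9 tested genes of glycogen and glucose phosphate metabolism, 1 fell by the brightest probe, where 9.27% of all tested genes fell. It was GYG1 (glycogenin, which primes glycogen, with change -0.46, SE 0.10, limma adjusted p 0.0316), and the list median was -0.03. By any probe, 3 genes of the list were called, where 20.5% of all tested genes were. GYG1 was not called without the cow as a block (limma adjusted p 0.214), with the slide as a block (0.170), without slide 3 (change -0.35, limma adjusted p 0.119) or with no filter on dim probes (0.136). PGM1, which interconverts glucose phosphates, had a change of -0.05 and did not pass. Several members and many other genes are targets of hypoxia-inducible factors, so these factors and some targets outside glycolysis were listed as well. Of 11 tested, 4 fell and none rose by the brightest probe, where 9.27% of all tested genes fell, and the list median was -0.09. By any probe, 5 of the 11 were called, where 20.5% of all tested genes were. ADM (adrenomedullin, a vasodilator peptide) had CONT signals from 2.76 to 3.40 and REST signals from 1.57 to 2.48 (change -1.15, SE 0.14, limma adjusted p 0.00644). HIF1A, the oxygen-regulated subunit, fell by 0.54 (limma adjusted p 0.0294). P4HA1, a prolyl hydroxylase of collagen, and EGLN1, the oxygen sensor that marks HIF1A for degradation, fell by 0.32 and 0.27 on the log2 scale (limma adjusted p 0.0903 and 0.0834). The call of EGLN1 was lost without any 1 of the 6 cows, and that of P4HA1 without any 1 except cow 3. VEGFA, BNIP3, NDRG1 and DDIT4, other targets, had changes of -0.04, -0.27, 0.24 and 0.39 and did not pass. The other BNIP3 probe had a change of 0.15. Leaving out any 1 cow gave 2 or 3 called genes in place of 4, and without the cow as a block 1 was called, ADM.

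In a biopsy, fewer cells of a type and less RNA per cell cannot be told apart, so markers of the cells that the tissue could hold are given beside these results, as sums of linear normalized signals. The brightest markers of a list weigh most in its sum. Over all tested genes, 9.27% fell and 6.95% rose. By the brightest probe, 2 of 8 tested secretory epithelium markers fell (CSN1S1 and CSN3) and 2 rose (KRT8 and KRT18). Called were 1 of 6 CSN1S1 probes, 1 of 2 CSN3 probes, and 2 of 3 probes each of KRT8 and KRT18. The changes of the KRT8 probes ranged from -0.14 to 0.72. The sum of the 8 markers was 3548 to 4535 in CONT and 2886 to 3676 in REST. CSN1S1, CSN3, LALBA and PAEP, with mean log2 signals from 9.53 upward, made up most of it. KRT8 and KRT18, with means up to 3.19, added little, so the sum does not show their rise. For nerve and Schwann cells, in which ALDOC is also known, S100B and SOX10 were 2 of 5 listed markers that were tested, and NEFL was among those not well above background. Neither was called by its brightest probe (1 of 3 S100B probes was), and the sum was 24.1 to 46.2 in CONT and 35.5 to 50.3 in REST. S100B made up most of this sum, with mean log2 signals of 5.00 and 5.29 against 1.45 and 1.47 for SOX10. Neither of 2 tested erythrocyte markers was called (13.9 to 20.3 and 10.4 to 20.7). Of 2 tested skeletal muscle markers, CKM fell (2.05 to 3.73 and 1.72 to 2.94). Of 5 tested myoepithelial markers 1 fell, ACTA2 (78.3 to 153 and 74.4 to 145), of 5 endothelial markers 1 rose, VWF (8.43 to 11.4 and 10.2 to 12.5), and of 6 leukocyte markers 1 rose, CD3E (8.67 to 11.1 and 9.05 to 12.3). Of 6 fibroblast markers none was called by its brightest probe (34.2 to 63.9 and 26.4 to 73.5), though 1 of 3 COL1A1 probes was. Adipocyte markers were not tested, since PLIN1, LEP and CIDEC were not well above background on all arrays of a group. Of the markers named here as having risen or fallen, VWF was called without the cow as a block and the others were not (limma adjusted p 0.133 to 0.508). The part of cell composition in the enzyme values was not tested.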

How the data were processed

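The samples were grouped as CONT (day 0) and REST (day 6) from the diet label, and paired by the animal label. Per the file headers, the authors scanned 3 slides of 4 arrays and extracted the deposited intensity values with Agilent Feature Extraction (version 11 per the labels): a background-subtracted processed signal on a linear scale, and the raw median intensity of each spot and its local background. The arrays had not been scaled to each other. For each array, all 45220 cells of the deposited series table equalled these processed intensities. The 75th percentile shift that the study's methods describe was therefore computed here, on log2 values over non-control spots. Spots that the software marked non-uniform or population outliers (1 to 13 per array) were left out, which touched no probe of the 10 enzymes, and repeat spots were averaged.

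Symbols were attached through RefSeq transcripts in a gene table of the ARS-UCD2.0 assembly, which named 27131 of 43653 probes (62.2%). The array annotation is on an older assembly, so no positions are given, and no probe sequences were used, so that cross-hybridisation between paralogs was not examined. A probe was tested if the software called it well above background on all arrays of CONT, of REST or of both. The comparison was run in limma 3.58.1 (R 4.3.3), with the cow as a fixed block, Benjamini-Hochberg adjustment over all 19406 tested probes and a threshold of 0.1; tests are two-sided. The study's methods name moderated tests with this threshold and no pairing, so the fit without the block is given as well. After subtraction of the group mean of each probe, a cow's CONT and REST arrays correlated with r of 0.356 to 0.574, and arrays of different cows with -0.33 to 0.134; the pairing itself comes from the labels. With the cow as a block, the p-values rest on how the within-cow changes spread over these animals. Without it, they rest on the spread between animals within a period. The script was tested on simulated data.

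The members and all lists were chosen with earlier results of these data known. Named were all members and all tested genes of the list of other glycolysis enzymes, and from each further list at most 4 called genes by absolute change; some genes that did not pass were added after their values were seen, and some genes of the lists are counted but not reported here by name. The alternatives were quantile normalization, a median shift, normexp (offset 50) on median signals, the series table, no filter or a stricter filter on dim probes, marked spots kept, no block, the cow as a random block, slide 3 left out, the slide as a block, a trended robust eBayes, each cow left out, and the mean of all tested probes of a gene. Python 3.11.15, pandas 2.3.3 and matplotlib 3.10.9 were used. With 6 cows, precision is limited by their number.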

Additional observations from a re-analysis of the deposited data

Results flagged for a closer look

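In each period, and for the within-cow changes, the gap between the most extreme of the 6 values and the next was divided by the whole range, for 35 genes (105 groups of values). This exceeded the critical value of Dixon's test in 3 groups, where chance flags about 1 in 20 (5.25 of 105). PFKL in CONT was 3.84 in cow 5, against 4.37 to 4.55 in the other 5 cows. ENO1 in CONT was 5.15 in cow 5, against 5.64 to 5.79 in the others. FBP2 in CONT was -1.56 in cow 6, against -0.42 to -0.03 in the others. Cows 5 and 6 lay on slide 3, the dim slide, and the part of the slide in these values was not tested.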

How the results depend on the processing

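The changes of the 10 enzymes moved by less than the SD between cows under every alternative run. That of ALDOC lay between -1.36 (without slide 3) and -0.97 (normexp), with -1.26 to -0.98 when 1 cow was left out, and the median over the members between -0.27 and -0.12, with -0.25 to -0.14 when 1 cow was left out. The counts moved more. The number of called probes was 388 with all probes tested, 837 with no replicate block, 1899 with the slide as a block and 1045 to 3253 when 1 cow was left out, against 3105; it was lowest without cow 2. The number of members with a called probe was 1 with all probes tested and 1 with no replicate block, against 3, and 2 to 4 when 1 cow was left out. The number of other glycolysis genes called was 0 under normexp, with all probes tested, with no replicate block and with the slide as a block, 1 without slide 3, and 0 to 2 when 1 cow was left out, against 2. Of 17 called genes outside the members, taken by the naming rule, GOT2 and ADM were called under every alternative, 6 of 17 with no replicate block, 2 of 17 with all probes tested, 8 of 17 without cow 2 and 8 of 17 without cow 4. None of these alternatives turned the direction of a called gene (0 of 17). The cause was not tested, except that testing all probes raises the number of tests and leaving out a cow lowers the number of samples. Quantile normalization moved the share of calls that were lower from 54.8% to 50.5%.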
